A study of Mus musculus with 3 samples.

Results

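Immediate early genes are genes that a cell transcribes within minutes of a stimulus, without first having to make new protein. Of the 33696 genes counted in these libraries, 10 were followed, chosen by name as a common set for measuring stimulation or tissue handling: *Fos*, *Fosb*, *Jun*, *Junb*, *Jund*, *Egr1*, *Atf3*, *Ier2*, *Dusp1* and *Nr4a1*. All 10 were found, each in 1 row. They were counted in endothelial cells (ECs), microglia, glia and neurons of mouse retinas at postnatal day 6, with 1 droplet library from each of 3 genotypes, all on a C57BL/6 background. The wild-type (WT) library carried no engineered allele that the labels or methods name. The *Tspan12* KO library came from mice without *Tspan12*, a co-receptor component of Norrin signaling in ECs, in every cell. The *Ctnnb1* cKO library came from mice with floxed *Ctnnb1*, which encodes beta-catenin, and the tamoxifen-inducible *Pdgfb*-iCreER driver, which acts in ECs, with tamoxifen given to the pups soon after birth. The methods name tamoxifen for the conditional mice alone. Each library pooled retinas of 5 mice of 1 genotype, and the mutants did not share litters with WT. The retinas were minced, digested with collagenase and DNase at body temperature, and enriched with magnetic beads against CD31 and CD11b before the cells were loaded.

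FOS, FOSB, JUN, JUNB and JUND are subunits of the dimeric transcription factor AP-1, EGR1 is a zinc finger transcription factor, ATF3 a stress-induced factor of the ATF/CREB family, and NR4A1 an orphan nuclear receptor. IER2 is a small nuclear protein, and DUSP1 is a phosphatase that feeds back on the signal that induces the rest. Their genes are switched on through serum response factor with its ternary complex partners and through CREB, and they are known to respond to the warmth and the enzymes used to dissociate tissue, in microglia above all. The same genes also respond to growth factors, light and injury in the living retina, so a level read after dissociation can hold both.

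With 1 library per genotype, genotype and library cannot be told apart, and no test between genotypes was possible. UMIs (unique molecular identifiers, 1 per captured transcript) were summed over the cells of a group and scaled to a common total as CPM, that is counts per 1e6 UMIs. The 95% intervals cover counting error only. Because this kit counts 1 end of each transcript, CPM was not divided by gene length, and levels of different genes were not ranked against each other. The libraries held 9151 to 14426 barcodes and 37008362 to 137114957 UMIs, and 8451 to 12732 cells remained after filters. Between 21 and 37 barcode sequences were shared by each pair of libraries. In the order WT, *Tspan12* KO, *Ctnnb1* cKO there were 542, 304 and 2738 ECs, 287, 368 and 2110 microglia, 1152, 1116 and 122 glia, and 3005, 6032 and 2135 neurons. Unless another order is named, sets of 3 values below follow it. ECs were far shallower in *Ctnnb1* cKO, with a median of 3397 UMIs per cell against 16061 in WT. All 10 endothelial and all 8 microglial markers stood out in the clusters given those names. The glia were Muller glia only, since the cluster that best matched astrocytes was led by genes of other cells. The neurons were rods, cones, bipolar and amacrine cells, and the cluster that held most *Ctnnb1* cKO rods passed on 3 of 8 rod markers. Most ECs, microglia and rods of the *Ctnnb1* cKO library lay in clusters of their own, whereas its glia shared 1 cluster with those of the other libraries. That library's split of glia from dividing progenitors moved with the clustering. It gave 122 glia and 476 progenitors here, and 393 and 102 with early genes kept for clustering.

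The *Ctnnb1* cKO library differed in other ways that move with its values. The summed level of the 8 microglial markers was 446 CPM in its neurons and 428 CPM in its ECs, against 87.0 to 120 CPM in the same groups of the other libraries, with none of the 8 at 0. The nuclear RNA *Malat1* was at 18266 CPM in its ECs against 4454 CPM in WT and 3064 CPM in *Tspan12* KO. Its median mitochondrial share was 0.374%, against 2.31% in WT and 1.80% in *Tspan12* KO. In the *Tspan12* KO library, erythrocyte markers summed to 3107 CPM in ECs against 156 CPM in WT, and the 8 mural markers to 320 CPM against 57.0 CPM in WT and 81.8 CPM in *Ctnnb1* cKO, with none at 0. The part of these differences in the results was not tested.

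The promoters show which of the known inducing elements lie close to the start of these genes. RefSeq promoters (build GRCm38.p6, 250 bases before and 50 after the gene start) were at hand for 8 of the 10 genes, all but *Egr1* and *Ier2*. Motifs were searched on both strands: the CArG box bound by serum response factor, the cyclic AMP response element (CRE) TGACGTCA and its short core TGACG, the AP-1 site TGANTCA, the EGR site GCGNGGGCG and the TATA box TATAAA. Each full CRE also holds the core. The core lay in 6 of the 8 promoters, against 23% of all genes. The EGR site lay in *Fosb* and *Nr4a1* (6.27% of all genes), the full CRE in *Dusp1* (2.03%) and the TATA box in *Fos* and *Junb* (15.7%). No CArG box (1.81% of genes) or AP-1 site (8.97%) was found in these 300-base windows. Sequence farther from the gene start, and that of *Egr1* and *Ier2*, was not searched, so such sites may lie there. The 250 bases before the gene start are given for *Fos*, the best known of these genes, *Nr4a1* and *Atf3*, both at least 2-fold lower in *Tspan12* KO ECs, and *Jund*, which held none of these motifs. Capitals mark the motifs found on either strand.
*Fos*, chr12:85473640-85473889, plus strand: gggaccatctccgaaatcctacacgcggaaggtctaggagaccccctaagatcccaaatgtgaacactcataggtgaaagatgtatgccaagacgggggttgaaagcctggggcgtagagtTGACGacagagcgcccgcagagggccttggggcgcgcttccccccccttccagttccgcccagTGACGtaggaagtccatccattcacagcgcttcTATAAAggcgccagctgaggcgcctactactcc
*Nr4a1*, chr15:101266596-101266845, plus strand: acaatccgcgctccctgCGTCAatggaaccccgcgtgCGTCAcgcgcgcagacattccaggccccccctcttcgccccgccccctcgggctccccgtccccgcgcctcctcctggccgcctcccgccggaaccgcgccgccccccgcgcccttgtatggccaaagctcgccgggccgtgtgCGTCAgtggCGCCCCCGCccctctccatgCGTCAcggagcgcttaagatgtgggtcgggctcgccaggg
*Atf3*, chr1:191183334-191183583, minus strand: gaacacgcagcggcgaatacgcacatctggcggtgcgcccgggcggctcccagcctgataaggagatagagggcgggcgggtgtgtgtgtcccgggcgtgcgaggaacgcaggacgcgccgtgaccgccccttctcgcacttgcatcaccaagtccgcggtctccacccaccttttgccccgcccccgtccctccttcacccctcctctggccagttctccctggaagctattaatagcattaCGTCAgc
*Jund*, chr8:70697489-70697738, plus strand: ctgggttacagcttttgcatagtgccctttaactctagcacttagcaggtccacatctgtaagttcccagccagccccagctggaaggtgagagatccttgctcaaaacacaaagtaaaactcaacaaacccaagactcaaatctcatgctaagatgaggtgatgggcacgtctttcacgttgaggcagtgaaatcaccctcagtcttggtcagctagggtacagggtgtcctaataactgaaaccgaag
*Nr4a1* had 4 such cores in this stretch, at 233, 213, 69 and 40 bases before the gene start, and an EGR site at 60. *Fos* had 2, at 129 and 66 bases before the start, with the TATA box at 33. The single core of *Atf3* began 7 bases before its start. These matches describe the sequence and say nothing of binding in these cells.

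Of the 4 cell groups, microglia carried the most immediate early gene RNA in all 3 libraries and neurons the least. The 10 genes together reached 17662, 14349 and 10993 CPM in microglia. In glia the sum was 8040, 8924 and 10644 CPM, in ECs 6271, 4910 and 5918 CPM, and in neurons 2001, 2255 and 3191 CPM. The order microglia, glia, ECs, neurons therefore held in each library, with the intervals of microglia and glia overlapping in *Ctnnb1* cKO. The range from highest to lowest group narrowed from 8.83-fold in WT to 6.36-fold and 3.45-fold in the mutants. At the percent that microglial markers reached in neurons, the neuronal sum would be at 104, 79.2 and 403 CPM. At that of endothelial markers it would be at 114, 55.9 and 332 CPM. The part of this RNA in the narrowing was not tested.

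**Figure D1:**
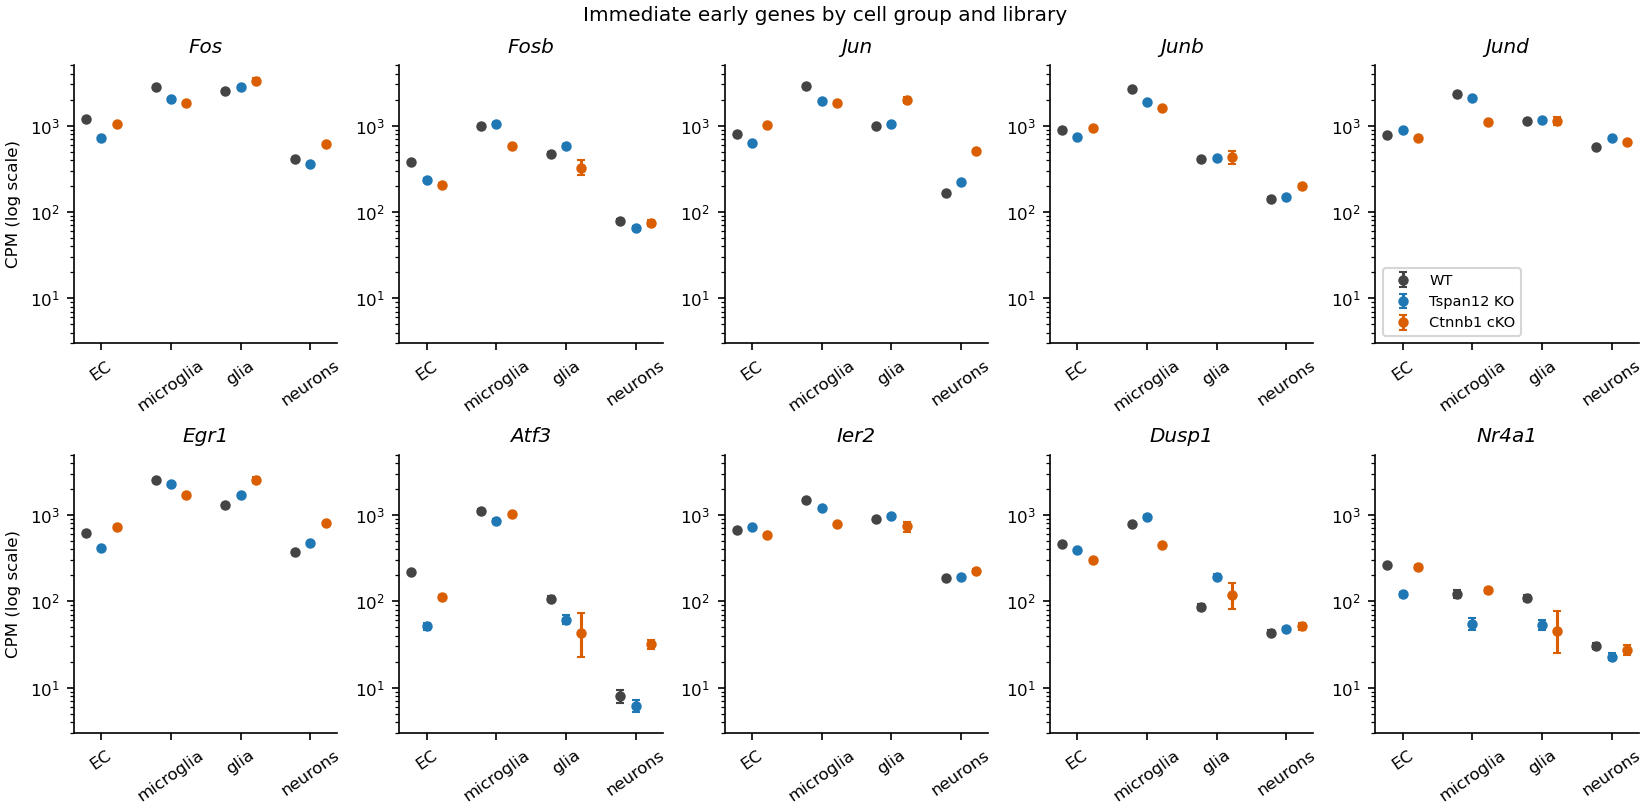
Each panel plots 1 gene, with cell groups along the horizontal axis (EC, endothelial cells), summed CPM on a log vertical axis, 1 point per library and 95% Poisson intervals. Nr4a1 sits highest in ECs in all 3 libraries, and Atf3 spans the widest range, from 1121 CPM in WT microglia to 7.88 CPM in WT neurons. RNA of microglia alone could bring 6.62 CPM of that neuronal level.

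Cell groups could be compared within libraries, with the library as a block (edgeR's quasi-likelihood test on 12 sums, adjusted over 16342 genes). For it the sums were scaled by TMM, which sets each total by the bulk of genes. The log2 folds of the test can therefore differ from ratios of the CPM beside them. Groups of the same library share mice and handling, and this test was chosen after the data were seen. Of the 10 genes, 9 were higher in microglia than in ECs and 1 was lower, where 25.3% of all genes were higher and 24.5% lower. Against neurons all 10 were higher in microglia (32% of all genes), 9 in ECs (33.2%) and 10 in glia (16.9%). Against glia, microglia were higher in 9 of 10 (29.8%) and ECs in 3, with 2 lower (29.6% and 26.3%). None of the 10 passed as lower in microglia than in glia, in ECs than in neurons or in glia than in neurons, where 25.7%, 37.3% and 21.3% of all genes did. Counts of at most 3 of 10 called are near the share of all genes.

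The AP-1 subunits differed in where they were highest. *Fos* (ENSMUSG00000021250) was at 2823 CPM in WT microglia and 2534 CPM in WT glia, at 2031 and 2764 CPM in *Tspan12* KO, and at 1824 and 3307 CPM in *Ctnnb1* cKO. Microglia and glia thus changed places between WT and the mutants, and *Fos* was the only member not called between them (log2 fold 0.26 ± 0.23 SE, adjusted p = 0.376). In ECs *Fos* was at 1201, 724 and 1054 CPM, below glia in each library (log2 fold −1.05 ± 0.24, adjusted p = 0.0028). Without the *Tspan12* KO library this call was lost (adjusted p = 0.096), as it was when cells were chosen by a marker gate (log2 fold −0.06, adjusted p = 0.785). *Fosb* (ENSMUSG00000003545) was at 987, 1051 and 582 CPM in microglia, 472, 588 and 326 CPM in glia and 380, 237 and 207 CPM in ECs. Neurons held 65.0 to 78.3 CPM of it, well apart from every other group.

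*Jun* (ENSMUSG00000052684) was at 2884, 1949 and 1807 CPM in microglia and at 166, 221 and 513 CPM in neurons. Its log2 fold of microglia over ECs was 1.64 ± 0.33 (adjusted p = 0.0016). *Junb* (ENSMUSG00000052837), a subunit that can hold JUN in check, was the AP-1 gene higher in ECs than in glia. It was at 894, 735 and 948 CPM in ECs and at 405, 417 and 434 CPM in glia, which did not overlap (log2 fold 1.53 ± 0.22, adjusted p = 0.00014). *Jund* (ENSMUSG00000071076), the member that resting cells also make, varied least between groups, from 562 to 710 CPM in neurons, 719 to 896 CPM in ECs, 1129 to 1158 CPM in glia and 1104 to 2304 CPM in microglia. Between ECs and glia it was not called by edgeR's test on TMM-scaled sums (log2 fold −0.01, SE 0.22, adjusted p = 0.976). By CPM it was lower in ECs than in glia in each library.

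*Egr1* (ENSMUSG00000038418) was at 2503, 2306 and 1681 CPM in microglia and at 1288, 1676 and 2530 CPM in glia. The groups crossed in *Ctnnb1* cKO, where glia were highest. In ECs it was at 610, 408 and 714 CPM, and in neurons at 371, 478 and 814 CPM, so that neurons exceeded ECs in both mutant libraries. It was the single member not called between ECs and neurons (log2 fold 0.56 ± 0.29, adjusted p = 0.113). It was called without the *Ctnnb1* cKO library (log2 fold 0.77, adjusted p = 0.0054) and without the filter on low counts (log2 fold 0.60, adjusted p = 0.018).

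*Atf3* (ENSMUSG00000026628) was the most unevenly placed of the 10. It was at 1121, 855 and 1023 CPM in microglia, 218, 51.3 and 111 CPM in ECs, 107, 61.2 and 42.4 CPM in glia and 7.88, 6.10 and 31.9 CPM in neurons. Microglia exceeded neurons by a log2 fold of 6.81 ± 0.64 (adjusted p = 2.8e-06) and ECs by 3.26 ± 0.54 (adjusted p = 0.00039). At the percent that microglial markers reached in neurons, *Atf3* would be at 6.62, 4.72 and 37.5 CPM there. Its neuronal values are thus near the level of other cells' RNA, and the size of the fold over neurons is not read. *Ier2* (ENSMUSG00000053560) was at 1472, 1185 and 789 CPM in microglia, 900, 970 and 734 CPM in glia, 668, 714 and 589 CPM in ECs and 185, 191 and 223 CPM in neurons. Its call between microglia and ECs (log2 fold 0.90 ± 0.21, adjusted p = 0.0038) was lost without WT (adjusted p = 0.080) or *Tspan12* KO (adjusted p = 0.056).

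*Dusp1* (ENSMUSG00000024190) split the 2 cell types that the beads select from the neural cells. It was at 781, 956 and 443 CPM in microglia and at 460, 392 and 299 CPM in ECs, but at 86.4, 192 and 118 CPM in glia and 43.4 to 51.3 CPM in neurons. ECs exceeded glia by a log2 fold of 2.10 ± 0.29 (adjusted p = 9.4e-05). *Nr4a1* (ENSMUSG00000023034) was the 1 member highest in ECs, at 261, 121 and 252 CPM. Microglia held 120, 55.0 and 134 CPM, glia 109, 53.4 and 45.7 CPM and neurons 30.3, 22.9 and 27.1 CPM. It was lower in microglia than in ECs (log2 fold −0.92 ± 0.25, adjusted p = 0.0096), a call lost without the WT library (adjusted p = 0.080) or the *Tspan12* KO library (adjusted p = 0.055) at nearly the same fold. ECs exceeded glia by a log2 fold of 1.95 ± 0.27 and neurons by 3.36 ± 0.27 (adjusted p = 8.9e-05 and 7.5e-07).

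A second list of 35 early genes, among them *Egr2*, *Klf6*, *Zfp36* and *Nr4a2*, was followed alongside. Of the 32 with enough counts, 16 were higher and 6 lower in microglia than in ECs (25.3% and 24.5% of all genes). In microglia against neurons 24 were higher and 0 lower (32% and 35.4%), and in ECs against neurons 26 and 2 (33.2% and 37.3%). Between ECs and glia 18 were higher and 5 lower (29.6% and 26.3%), with a median log2 fold of 1.49, where the 10 genes had a median of 0.05 and all genes 0.03. Of 14 heat shock genes, another response to handling, 4 were higher and 4 lower in microglia than in ECs, near the shares of all genes (25.3% and 24.5%).

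Across the 24 sums of 8 cell classes and 3 libraries, the gene outside the set whose log2 level ran most like the mean of the 10 was *Klf6*, a zinc finger factor that is itself an early gene (Pearson's r = 0.965). It was followed by *Suclg2* (0.944), *Cd9* (0.938), *Phgdh* (0.934) and *Tmem164* (0.931). These are descriptions over points that share libraries and depth. Among the 10, *Fosb* ran closest to the mean (0.968) and *Nr4a1* least (0.775). Each of the 10 is part of that mean, which raises its r, so these values cannot be set beside that of *Klf6*. The closest pair was *Fosb* and *Ier2* (r = 0.958) and the least alike *Egr1* and *Nr4a1* (0.419).

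The microglial levels hid a pair of clusters that differed about 10-fold. In WT, 181 microglia lay in a cluster led by *Gpr34* and 101 in a cluster led by *Hmox1*, and in *Tspan12* KO 284 and 75. The names give the top gene of each cluster against all other cells, and *Gpr34* was a leading gene of both. *Hmox1* was at 1103 CPM in the *Hmox1*-led and 800 CPM in the *Gpr34*-led cluster of WT. In *Tspan12* KO it was at 2615 and 1221 CPM. The clusters had been made without the 10 genes and without the lists of other early and heat shock genes. The 10 genes summed to 19168 CPM in the *Gpr34*-led cluster of WT and to 1726 CPM in the *Hmox1*-led one. In *Tspan12* KO the sums were 15107 and 1471 CPM. Every one of the 10 was lower in the *Hmox1*-led cluster in both libraries. In WT *Fos* was at 225 CPM there against 3037 CPM, *Egr1* at 114 against 2735 CPM, *Fosb* at 31.5 against 1085 CPM and *Jund* at 481 against 2488 CPM. These are descriptions with no test, since clusters are cut from the same cells.

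Microglial markers were present in both clusters. The 8 microglial markers summed to 15393 CPM in the *Hmox1*-led and 15468 CPM in the *Gpr34*-led cluster of WT, and to 13149 and 15979 CPM in *Tspan12* KO. *Actb* was also near, at 12547 and 11677 CPM in WT. Heat shock genes summed to 3472 and 3912 CPM in WT. What moved with the early genes were inflammatory transcripts, depth and *Malat1*. The 9 cytokine and chemokine genes, among them *Ccl3*, *Ccl4* and *Tnf*, summed to 1166 against 9479 CPM in WT and to 642 against 7598 CPM in *Tspan12* KO. *Malat1* was at 1214 against 9453 CPM in WT. Median UMIs were 2126 against 12046 in WT and 1613 against 8493 in *Tspan12* KO, and median mitochondrial shares were close, at 3.95% and 3.83% in WT. Erythrocyte markers reached 4735 CPM in the *Hmox1*-led cluster of *Tspan12* KO but 114 CPM in that of WT. The part of depth and of other cells' RNA in the contrast was not tested beyond thinning. At a fixed 1000 UMIs drawn from each cell, the median cell held 1 UMI of the 10 genes in the *Hmox1*-led cluster of either library, and 20 (WT) or 15 (*Tspan12* KO) in the *Gpr34*-led one. A UMI of any of the 10 was found in 58.9% (48.0 to 69.2%) and 99.4% (at least 97.0%) of thinned WT cells.

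**Figure D2:**
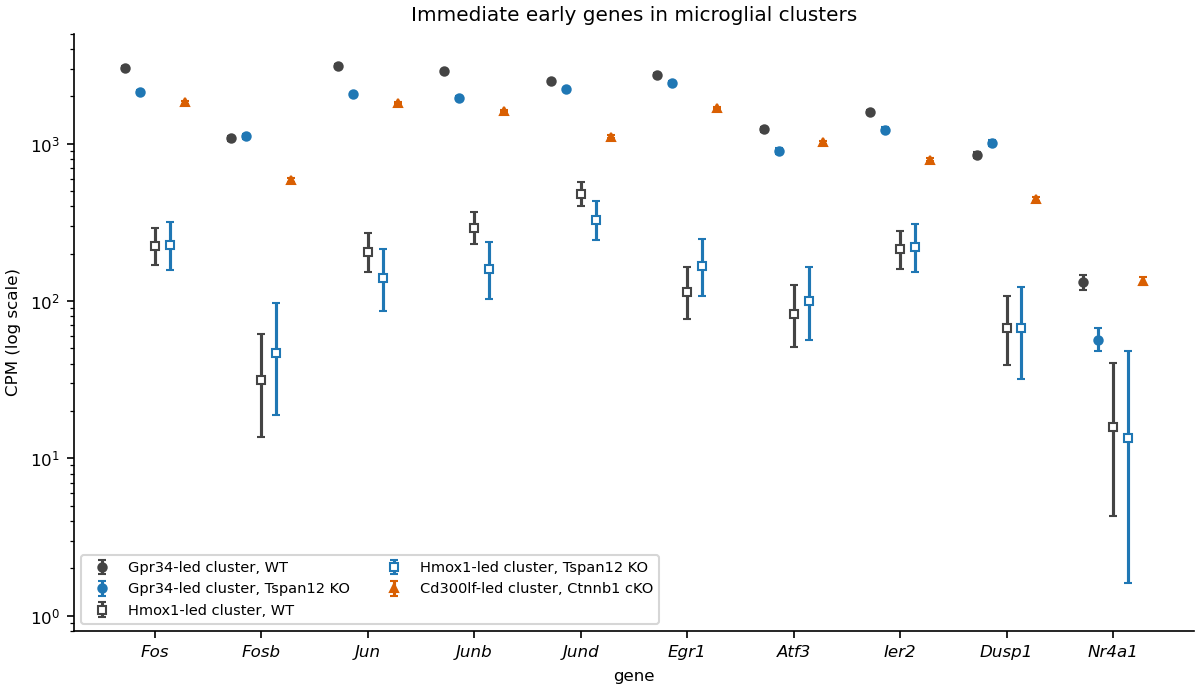
Summed CPM (log vertical axis) of the 10 genes in microglial clusters with at least 50 cells of a library, with 95% Poisson intervals. Open squares, the Hmox1-led cluster of WT and Tspan12 KO, sit below the filled points of the Gpr34-led cluster for every gene, and the Ctnnb1 cKO microglia (triangles, Cd300lf-led cluster) sit near the filled points.

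Of the *Ctnnb1* cKO microglia, 2086 lay in a cluster led by *Cd300lf*, with the 10 genes at 11027 CPM, and 20 in the *Hmox1*-led cluster. Cell by cell, the spread followed this makeup. In thinned microglia the number of UMIs of the 10 genes per cell had a variance of 10.3, 6.37 and 3.79 times its mean in the 3 libraries. The lower quartile was 2, 6.75 and 7 UMIs, the median 15, 14 and 11, and the upper quartile 22, 20 and 15. WT microglia therefore had both the most cells without any such UMI, 14.1% against 7.85% and 1.30%, and the highest upper quartile. The same cells held several members at once. In WT, 84.6% (78.4 to 89.6%) of microglia with a *Fos* UMI also held one of *Jun*, against 25.7% (17.6 to 35.4%) of those without. In *Tspan12* KO these shares were 78.9% and 39.7%, and in *Ctnnb1* cKO 74.8% and 60.1%.

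**Figure D3:**
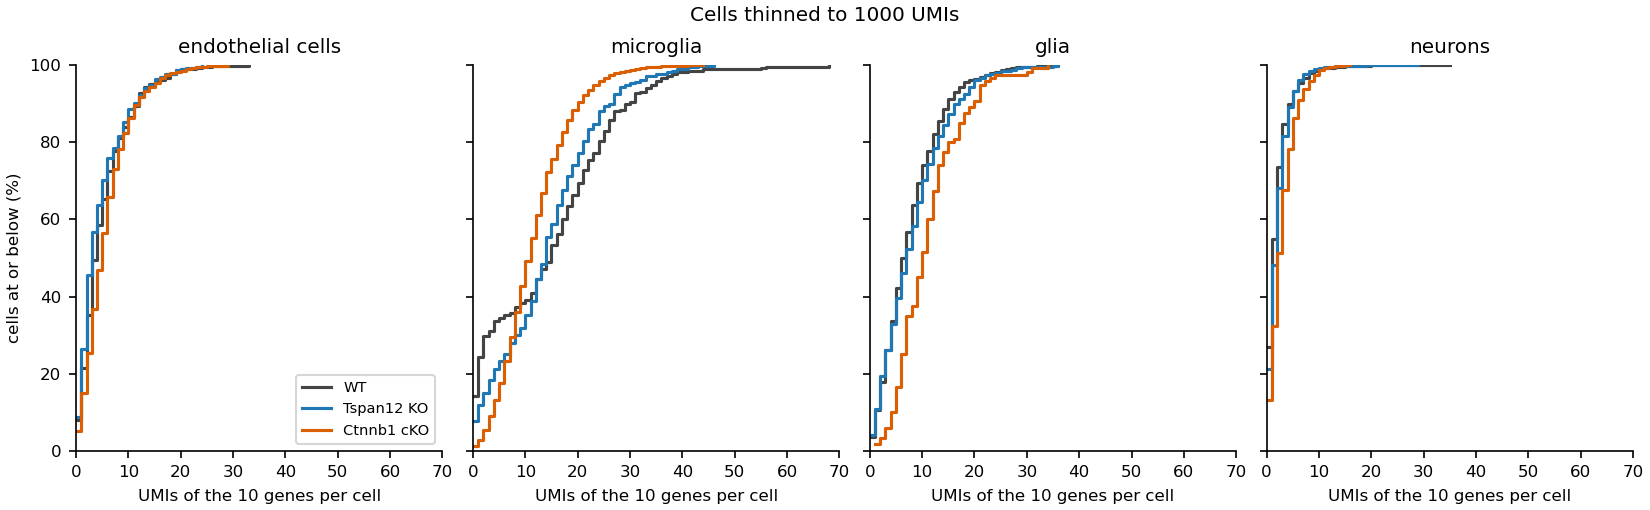
Cumulative percent of cells (vertical axis) at or below a number of UMIs of the 10 genes per cell (horizontal axis), after each cell was thinned to 1000 UMIs, by cell group and library. The WT microglia show a plateau between few and many UMIs, whereas the Ctnnb1 cKO microglia follow 1 smooth curve, and the highest WT microglial cell held 68 UMIs.

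In thinned ECs the median was 4, 3 and 5 UMIs of the 10 genes, and 10, 5 and 247 cells were too shallow to be thinned. In glia it was 7, 7 and 10 and in neurons 1, 2 and 2. A UMI of any member was found in 92.1%, 91.3% and 94.9% of ECs, in 96.4%, 95.8% and 100% of glia and in 73.1%, 78.7% and 86.7% of neurons. No cell type of the retina is known to lack these genes, so there was no group to set the background for these shares. Without thinning, deeper cells hold a UMI more readily, and the shares over all cells were 97.3 to 99.3% in ECs, 92.0 to 99.3% in microglia, 96.3 to 99.2% in glia and 85.7 to 92.6% in neurons.

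In ECs, the cells in which Norrin and beta-catenin signaling act, the 10 genes as a set were lower than WT in *Tspan12* KO and near WT in *Ctnnb1* cKO. Their median log2 ratio was −0.45 in *Tspan12* KO (0.01 for all genes), with 2 of 10 above 0 (50.9% of all genes). In *Ctnnb1* cKO it was −0.16 (−0.12 for all genes). The sum had a log2 ratio over WT of −0.35 (−0.37 to −0.34) for the *Tspan12* KO library and −0.08 (−0.10 to −0.07) for *Ctnnb1* cKO, and the latter turned to 0.18 in thinned cells, 0.11 as a mean over cells and 0.04 with TMM scaling. The *Tspan12* KO ratio shrank but stayed below 0 in thinned cells and as a mean over cells. In *Tspan12* KO 2 members were at least 2-fold lower and 0 higher (4.19% and 2.88% of all genes). *Atf3* was at 51.3 CPM against 218 CPM in WT, a log2 ratio of −2.09 (−2.24 to −1.93), and *Nr4a1* at 121 against 261 CPM, a log2 ratio of −1.11 (−1.22 to −1.01) that was −0.83 as a mean over cells. *Fos* (−0.73), *Fosb* (−0.68) and *Egr1* (−0.58) were lower by less, while *Jund* (0.19) and *Ier2* (0.10) were slightly higher. In *Ctnnb1* cKO 0 members reached 2-fold in either direction (12.5% of all genes lower and 8.38% higher). *Atf3* came closest, at 111 CPM and a log2 ratio of −0.97 (−1.06 to −0.88), followed by *Fosb* at −0.87 (−0.94 to −0.81) and *Dusp1* at −0.62 (−0.68 to −0.57). The highest was *Jun*, at 0.37 (0.34 to 0.41). Microglial markers in these ECs stood at 3.52% of their level in the microglia of that library. At that percent *Atf3* would be at 36.0 CPM, against 8.73 CPM by the same measure in WT ECs. The part of this RNA in the *Atf3* ratio was not tested.

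The *Ctnnb1* cKO ECs were again of more than 1 kind. A cluster of 594 cells led by *Eln*, the elastin gene, held 8844 CPM of the 10 genes, and the main cluster of 2130 cells, led by *Dkk2*, 5151 CPM. *Fos* was at 1900 against 832 CPM and *Junb* at 1610 against 775 CPM, log2 ratios of 1.19 (1.14 to 1.24) and 1.06 (1.003 to 1.11). *Atf3* was the exception, at 80.5 against 120 CPM, and *Fosb* was alike, at 215 and 206 CPM. Both clusters had shallow cells of like depth, with medians of 3533 and 3378 UMIs. Set against the WT EC cluster, the sum had a log2 ratio of −0.28 in the *Dkk2*-led and 0.50 in the *Eln*-led cluster, on either side of the value for all ECs.

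The orphan receptor *Nr4a1* was lower in *Tspan12* KO in all 4 cell groups, and *Atf3* in ECs, microglia and glia. For *Nr4a1* the log2 ratio was −1.13 (−1.42 to −0.85) in microglia, −1.03 (−1.25 to −0.80) in glia and −0.41 (−0.58 to −0.24) in neurons, beside −1.11 in ECs. For *Atf3* it was −0.39 in microglia and −0.81 in glia, beside −2.09 in ECs. In neurons *Atf3* was near the level of other cells' RNA in both libraries and is not read. Endothelial markers seen in glia and neurons give a level that RNA of ECs could bring. For *Nr4a1* it was 22.3 and 10.1 CPM in glia of WT and *Tspan12* KO, and 4.76 and 1.37 CPM in neurons. The part of this RNA in the ratios was not tested. Within neurons, *Nr4a1* was at 23.9 against 30.6 CPM in rods, 17.2 against 34.4 CPM in amacrine cells and 2.84 against 8.37 CPM in bipolar cells, the last on 8 UMIs. Its relatives *Nr4a2* and *Nr4a3*, nuclear receptors of the same family, were at 35.3 against 141 CPM and 2.26 against 25.9 CPM in *Tspan12* KO ECs, and at 51.4 and 3.33 CPM in *Ctnnb1* cKO ECs. Both were at least 2-fold lower in ECs of both mutants, where *Nr4a1* was so in *Tspan12* KO alone. In *Ctnnb1* cKO microglia they went the other way, at 12.7 against 3.35 CPM and 27.7 against 6.69 CPM.

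**Figure D4:**
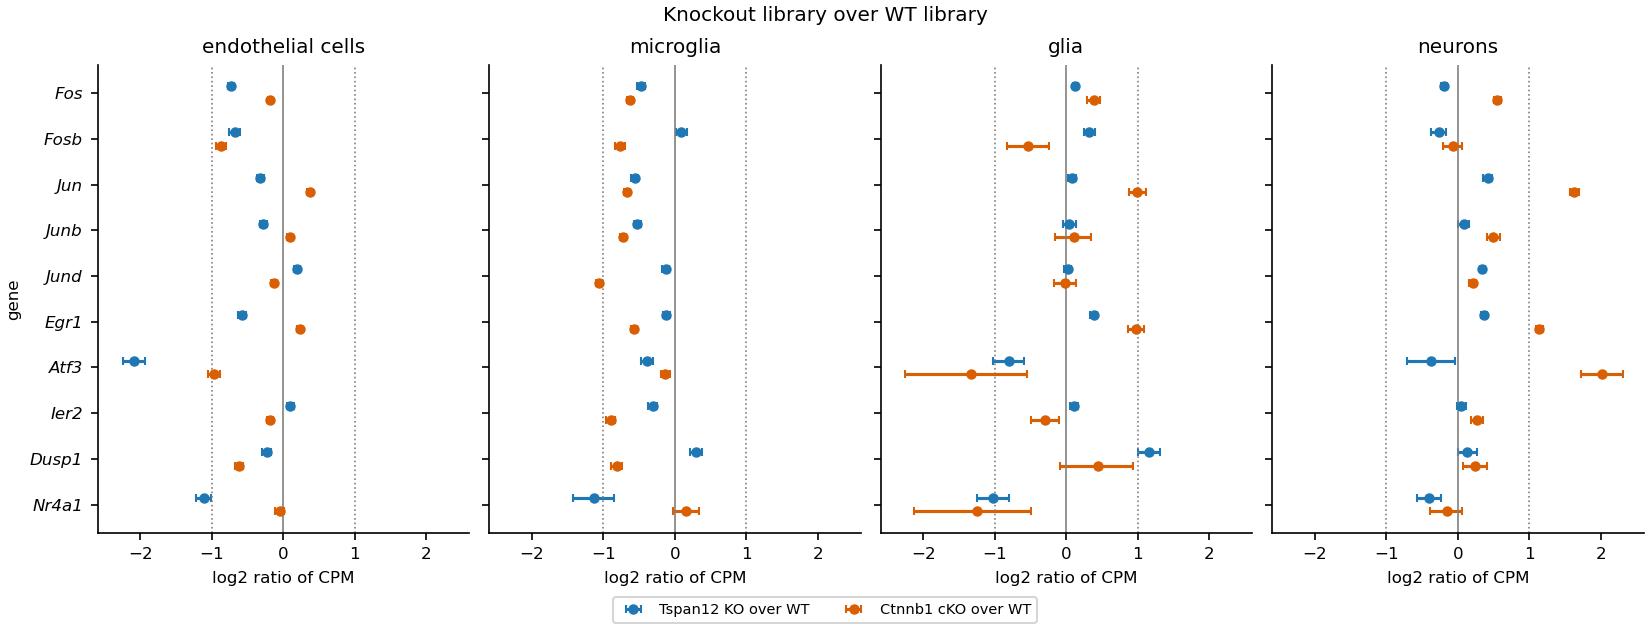
Log2 ratio of CPM, mutant library over WT library (horizontal axis), for each gene (vertical axis) and cell group, with 95% intervals for counting error. Dotted lines mark 2-fold. In Ctnnb1 cKO, 9 of 10 genes lie below 0 in microglia, where 53.3% of all genes lie above 0. In neurons 8 of 10 lie above 0 (42.2% of all genes), among them Atf3, which is not read there.

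Both mutants were set against the same WT library, so a gene low or high in that library alone would differ in both. Of the other early genes, 32 were counted well enough in *Tspan12* KO ECs. Of these, 7 were at least 2-fold lower and 0 higher (4.19% and 2.88% of all genes), with a median log2 ratio of −0.65 against 0.01 for all genes. Besides *Nr4a2* and *Nr4a3* these were *Egr2*, *Egr3*, *Ccn1* and the phosphatase genes *Dusp2* and *Dusp5*, of which all but *Egr3* are named after their values were seen. In *Ctnnb1* cKO ECs 4 were lower, the share of all genes (12.5%), and 5 higher (8.38% of all genes), *Ccn1* among the latter at 327 against 155 CPM. *Egr3*, a factor that VEGF induces in ECs, was at 37.3, 6.52 and 6.14 CPM. The chemokine *Cxcl2* was at 14.8, 0.666 and 2.96 CPM, the second on 5 UMIs. *Cxcl10* and *Il1b*, at 33.2 against 1.45 CPM and 7.73 against 0.482 CPM, were higher in *Ctnnb1* cKO ECs, the group in which microglial markers were also higher. Heat shock genes past 2-fold numbered 0 of 12 in *Tspan12* KO ECs and 0 of 13 in *Ctnnb1* cKO ECs. Of the listed genes the highest ratio in *Tspan12* KO ECs was that of *Elk1*, a ternary complex factor, at 17.6 against 9.46 CPM, followed by *Hsph1* at 34.5 against 23.1 CPM.

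In microglia, which the *Pdgfb* driver does not target, the sum had a log2 ratio over WT of −0.30 (−0.32 to −0.28) for the *Tspan12* KO library and −0.68 (−0.70 to −0.67) for *Ctnnb1* cKO. These ratios were −0.04 and −0.31 in thinned cells and −0.08 and −0.25 as means over cells, which give the *Hmox1*-led cells more weight. With the *Gpr34*-led cluster of WT as the reference, the *Gpr34*-led cluster of *Tspan12* KO had a log2 ratio of −0.34 and the *Cd300lf*-led cluster of *Ctnnb1* cKO one of −0.80. In *Tspan12* KO 1 member, *Nr4a1*, was at least 2-fold lower and 0 higher (1.72% and 1.8% of all genes), and as a mean over cells its log2 ratio was −0.85. In *Ctnnb1* cKO 1 member, *Jund*, was lower, at 1104 against 2304 CPM and a log2 ratio of −1.06 (−1.11 to −1.01), and 0 were higher (7.54% and 9.38%). It lost this size in thinned cells (−0.69) and as a mean over cells (−0.68). *Ier2* (−0.90), *Dusp1* (−0.82) and *Fosb* (−0.76) were the next lowest, and *Nr4a1* alone was above 0, at 0.15 (−0.03 to 0.34). In both mutants *Cxcl2*, *Dusp2*, *Dnajb1* and *Hspa1a* were at least 2-fold lower, *Cxcl2* at 15.2 and 48.5 against 170 CPM. *Ier5* was at 180 against 764 CPM in *Ctnnb1* cKO microglia. *Socs3*, a feedback inhibitor of cytokine signaling, was at 279 against 70.3 CPM there.

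In glia the sum had a log2 ratio of 0.15 (0.13 to 0.17) in *Tspan12* KO, which turned to −0.05 with the marker gate and −0.02 as a mean over cells, and of 0.40 (0.35 to 0.46) in *Ctnnb1* cKO, which was 0.049 with the marker gate. In *Tspan12* KO, *Dusp1* was the 1 member at least 2-fold higher (1.51% of all genes), at 192 against 86.4 CPM and a log2 ratio of 1.15 (0.996 to 1.31). It was under 2-fold with the marker gate (0.75) and as a mean over cells (0.98). *Nr4a1* was the 1 that was lower (0.949%), and it too was under 2-fold in both settings (−0.91 and −0.95). In *Ctnnb1* cKO, with only 122 glia, *Jun* at 1978 against 995 CPM and *Egr1* at 2530 against 1288 CPM fell just short of 2-fold, with log2 ratios of 0.99 (0.87 to 1.11) and 0.97 (0.87 to 1.08). *Atf3* and *Nr4a1*, counted at 13 and 14 UMIs, were at log2 ratios of −1.34 (−2.25 to −0.55) and −1.25 (−2.13 to −0.49), so 0 members were higher and 2 lower (5.83% and 14.3% of all genes). With the marker gate neither was past 2-fold (−0.55 and −0.80). Microglial and endothelial markers in these glia stood at 3.14% and 12.02% of their level in the source cells. At those percents *Atf3* would be at 32.1 and 13.4 CPM, against 42.4 CPM measured, and *Nr4a1* at 4.199 and 30.3 CPM, against 45.7 CPM, so neither value is read as a difference in glia. *Srf*, which encodes serum response factor, was at 42.6, 20.7 and 19.6 CPM in glia. The last value rests on 6 UMIs, with a log2 ratio of −1.12 (−2.58 to 0.02).

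In neurons the size and order of the ratios depended on which cells were taken. The sum had a log2 ratio over WT of 0.17 (0.15 to 0.19) for the *Tspan12* KO library and 0.67 (0.65 to 0.70) for *Ctnnb1* cKO. In *Tspan12* KO 0 members passed 2-fold either way (0.666% of all genes higher and 2.26% lower). In *Ctnnb1* cKO 3 did, all higher (8.45% higher and 15.2% lower): *Jun* at 513 against 166 CPM, a log2 ratio of 1.63 (1.56 to 1.70), *Egr1* at 814 against 371 CPM, 1.14 (1.09 to 1.18), and *Atf3* at 31.9 against 7.88 CPM, 2.01 (1.72 to 2.31). With the marker gate the sum was at 0.41 in *Tspan12* KO and 0.40 in *Ctnnb1* cKO. Without doublet removal most *Ctnnb1* cKO rods stayed unnamed, 385 neurons were left, and the log2 ratios were 0.03 for the sum, 0.62 for *Jun* and 0.64 for *Egr1*, with the sum at 0.55 in *Tspan12* KO. Within rods alone *Jun* was at 534 against 187 CPM and *Egr1* at 842 against 419 CPM. In bipolar cells they were at 340 against 151 CPM and 609 against 253 CPM, and in amacrine cells, with smaller differences, at 222 against 143 CPM and 430 against 309 CPM.

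RNA of other cells was measured beside these values. The microglial markers in *Ctnnb1* cKO neurons stood at 3.66% of their level in the microglia of that library, and the endothelial markers at 5.61% of their level in its ECs. At 3.66% of the microglial level *Atf3* would be at 37.5 CPM, above the 31.9 CPM measured, so *Atf3* in these neurons was at the level of other cells' RNA and is not read as a difference. In WT and *Tspan12* KO neurons that level was 6.62 and 4.72 CPM, against 7.88 and 6.10 CPM measured. In *Ctnnb1* cKO neurons it was 66.2 CPM from microglia and 57.4 CPM from ECs for *Jun*, against 513 CPM measured. For *Egr1* it was 61.6 and 40.03 CPM against 814 CPM. For the sum of the 10 genes it was 403 and 332 CPM against 3191 CPM, and its part in the ratio was not tested. The 7 cytokine genes counted well enough were all at least 2-fold higher in *Ctnnb1* cKO neurons (8.45% of all genes), with *Ccl2* at 31.0 against 1.88 CPM and *Tnf* at 11.9 against 0.731 CPM. Of the 31 other early genes counted well enough, 10 were at least 2-fold higher and 4 lower there (8.45% and 15.2% of all genes). The 4 lower are near the share of all genes. *Npas4*, an early gene of active neurons, was lower in both mutants, at 6.74, 2.24 and 1.06 CPM.

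**Figure D5:**
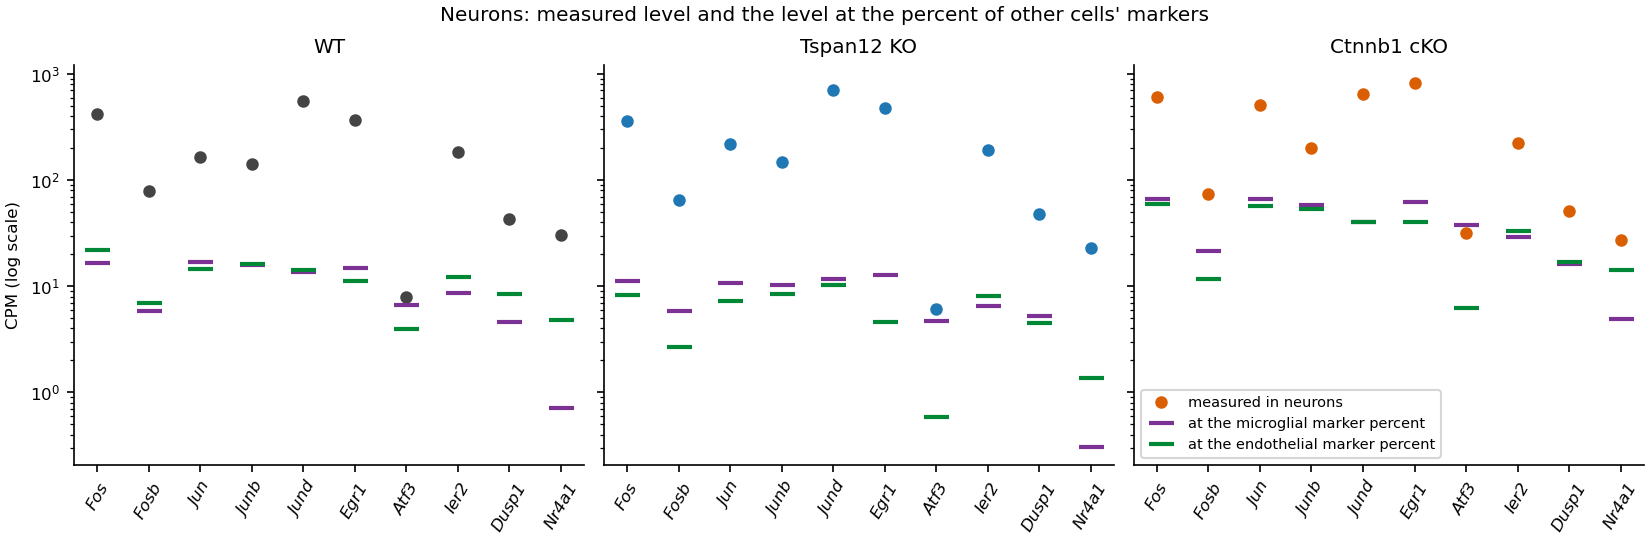
CPM of each gene in neurons (points, log vertical axis), with the level it would have at the percent of the source cells' level that microglial (purple) or endothelial (green) markers show in the same neurons. In Ctnnb1 cKO, Atf3 lies below the purple line (31.9 against 37.5 CPM), and Jun and Egr1 lie well above both lines.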

How the data were processed

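Per the file headers and labels, the authors made the deposited counts with Cell Ranger 8.0.1, as UMIs per gene and barcode. The submitters' notes name GRCm39 and the methods another build, so no gene coordinates from the counts are given. Barcodes under 250 genes or 500 UMIs, or over 15% mitochondrial, were dropped, and the highest Scrublet scores (0.8% per 1000 cells) were removed as doublets. Cells were clustered together with scanpy 1.11.5 (2000 variable genes without the early and heat shock genes, 30 components, 20 neighbours, Leiden resolution 1) and named from marker lists. UMIs were summed per group and library. Ratios between libraries have exact binomial intervals and no p, and were counted at 2-fold among genes with at least 50 UMIs. Cell groups were compared with edgeR 4.0.16, with library as a block, an analysis added after the data were seen, and DESeq2 1.42.0 as an alternative. The edgeR comparison was tested on simulated data, and DESeq2 was not. For shares of cells, each cell was thinned to 1000 UMIs. The members and lists were chosen with earlier results of these data known. Named list genes were the 2 highest and 2 lowest ratios per contrast and group, and those past 2-fold in both contrasts.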

Additional observations from a re-analysis of the deposited data

Results flagged for a closer look

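Several genes had opposite ratios in different cell groups of the *Ctnnb1* cKO library, with intervals on either side of 0. With 1 library per genotype the differences between groups were not tested. *Fos* had a log2 ratio of 0.55 in neurons and −0.63 in microglia, a difference of 1.18. *Jun* had 0.99 in glia and −0.67 in microglia, a difference of 1.67, and 1.63 in neurons, a difference of 2.30. *Egr1* had 0.97 in glia and −0.57 in microglia, a difference of 1.55, and 1.14 in neurons, a difference of 1.71. *Atf3* had 2.01 in neurons against −0.97 in ECs and −1.34 in glia, differences of 2.98 and 3.35. The neuronal and glial *Atf3* values of this library both lay at the level of other cells' RNA, and the glial one rests on 13 UMIs.

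The 10 genes were also counted in classes that the comparisons did not use. Their sum exceeded that of WT in neurogenic precursors and progenitors, but not in mural cells. In neurogenic precursors it was 3513 and 3848 CPM in *Tspan12* KO and *Ctnnb1* cKO, against 2567 CPM in WT. In progenitors it was 8348 and 8323 CPM, against 7933 CPM in WT. The *Ctnnb1* cKO value rests on a split from glia that moved with the clustering.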

How the results depend on the processing

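No paired analysis was possible because each genotype had 1 library, and the comparison of cell groups already has the library as a block. Of 72 values of the sum under another setting, 24 stayed within counting error, as did 144 of 160 counts of genes past 2-fold (within 1.5 times). The sums below are log2 ratios, and the cause of each shift was not tested. The counts of genes past 2-fold below come without a share of all genes under the same setting. They show only whether the main counts held.

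With TMM scaling, the sum was 0.043 in *Ctnnb1* cKO ECs, −0.38 and −0.72 in *Tspan12* KO and *Ctnnb1* cKO microglia and 0.22 and 0.83 in neurons, with 2 genes higher in *Ctnnb1* cKO glia. With a total without mitochondrial and early genes it was −0.37 and −0.12 in ECs, −0.32 and −0.75 in microglia and 0.65 in *Ctnnb1* cKO neurons, with 1 gene lower in *Ctnnb1* cKO ECs. Without doublet removal it was −0.12 in *Ctnnb1* cKO ECs, −0.46 in *Tspan12* KO microglia, 0.27 in *Ctnnb1* cKO glia and 0.55 and 0.034 in neurons, with 1 gene higher and 1 lower in *Ctnnb1* cKO neurons. With the marker gate it was −0.26 and −0.64 in microglia, −0.050 and 0.049 in glia and 0.41 and 0.40 in neurons, with 0 genes higher in *Tspan12* KO glia and 0 lower in *Ctnnb1* cKO glia. With early genes kept for clustering it was 0.11 and 0.28 in glia and 0.29 and 0.58 in neurons.

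As a mean over cells it was −0.16 and 0.11 in ECs, −0.077 and −0.25 in microglia, −0.017 and 0.51 in glia and 0.088 and 0.54 in neurons. Then 1 gene was lower in *Tspan12* KO ECs, 0 in microglia of either mutant and 0 higher or lower in *Tspan12* KO glia, and 2 were higher in *Ctnnb1* cKO glia. In thinned cells it was −0.14 and 0.18 in ECs, −0.044 and −0.31 in microglia, 0.10 and 0.53 in glia and 0.12 and 0.61 in neurons. Then 0 genes were lower in *Ctnnb1* cKO microglia, and in its glia 2 were higher and 1 lower. With a mitochondrial limit of 5% it was −0.41 and −0.15 in ECs, −0.35 and −0.75 in microglia and 0.14 in *Tspan12* KO neurons, with 1 gene lower in *Ctnnb1* cKO ECs. Rods alone gave 0.12 and 0.61.

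Between cell groups, all 60 comparisons of a gene kept their direction and side of the threshold with DESeq2. When each library was left out in turn, 0 to 1 genes were lower in microglia than in ECs (0 without WT or *Tspan12* KO) and 0 to 2 lower in ECs than in glia (0 without *Tspan12* KO). With the marker gate 6 were higher and 0 lower in ECs than in glia, where 5670 and 5834 of 17092 genes were. *Fosb* turned there to a log2 fold of 0.61 (edgeR's quasi-likelihood test, adjusted p = 0.0056). Only 122 *Ctnnb1* cKO glia limit the values of scarce genes there, and their split from progenitors moved with the clustering.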

Other observations

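Immune and perivascular cells that were too few for the comparisons also carried much early gene RNA. Cells with macrophage or monocyte markers held 15585 CPM of the 10 genes in *Tspan12* KO (21 cells) and 13532 CPM in *Ctnnb1* cKO (327 cells), above the microglia of both libraries. Mural cells, the pericytes and smooth muscle of vessels, held 13571, 8410 and 10712 CPM in WT, *Tspan12* KO and *Ctnnb1* cKO, on 10, 32 and 51 cells. Neutrophils held less, at 4478 CPM in WT (19 cells) and 3245 CPM in *Ctnnb1* cKO (103 cells). *Nr4a1* was at 86.5 CPM in *Tspan12* KO mural cells against 458 CPM in WT.

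Among neural cells the dividing progenitors were close to Muller glia, at 7933, 8348 and 8323 CPM in WT, *Tspan12* KO and *Ctnnb1* cKO. In *Ctnnb1* cKO the split between these classes moved with the clustering. Cones held 3537 and 2856 CPM in WT and *Tspan12* KO, above the 2161 and 2356 CPM of rods. Amacrine cells were at 1834, 1928 and 1652 CPM, so that the higher sum of *Ctnnb1* cKO neurons was not seen in amacrine cells.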
